A study of Mus musculus with 4 samples.

Results

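The genes described here are 9 members of the PI3K, AKT, TSC and mTOR pathway, namely Pik3ca, Pik3cd, Akt1, Stk11, Tsc1, Tsc2, Mtor, Rptor and Rictor. They were taken by name, as the probe sets whose platform annotation gave exactly 1 gene symbol among these 9. Each gene had 1 such probe set, so 9 probe sets of the 35556 on the array, and 9 of 19938 genes with a single-gene probe set, are covered. RNA was taken from Flt3-negative LSK cells of mouse bone marrow, a sorted fraction (lineage-negative, Sca-1 and c-Kit positive, without surface Flt3) that is rich in blood stem cells. The mice labelled GABPα-deficient were Mx1Cre-GABPa(FL/-), with 1 floxed and 1 null allele, and the controls were Mx1Cre-GABPa(FL/+), with 1 floxed and 1 wild-type allele. All mice carried Mx1-Cre and a floxed allele, all were given pIpC, a double-stranded RNA analogue that induces interferon and so switches on the Mx1 promoter, and cells were taken 4 days after the last dose. The mice were 6 to 8 weeks old and from a stock backcrossed for 4 generations. Each group had 2 Affymetrix Mouse Gene 1.0 ST arrays, and the labels do not say whether an array held RNA of 1 mouse or of a pool. The Mx1 promoter responds to interferon in many cell types, so the deletion is not limited to blood stem cells, and the controls were not fully wild-type.

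PI3K is a lipid kinase that growth factor receptors such as KIT recruit to the membrane, where its product PIP3 brings the kinase AKT to be activated. AKT restrains the TSC1-TSC2 complex, which otherwise holds the small GTPase RHEB inactive, and RHEB activates mTORC1, the complex of the kinase mTOR with RAPTOR that drives protein synthesis and cell growth. mTOR also forms mTORC2 with RICTOR, which phosphorylates AKT, and the kinase LKB1 (gene Stk11) restrains mTORC1 through AMPK. In mice, deletion of Tsc1 or of Stk11 is known to drive blood stem cells out of quiescence and to exhaust them.

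GABPα belongs to the ETS family of transcription factors, which bind DNA around a GGAA core, so the promoter windows of the 9 genes were searched on both strands for the GABP-type motif CCGGAAGT. Of 32851 RefSeq promoter windows, each from 250 bases before to 50 bases after a transcript start, 3.89% held it. Among the members it stood in 3 of 12 windows, 1 each for Pik3ca, Mtor and Tsc2, and the other 6 genes had no match in these letters. The shorter form CCGGAAG, which every match to the longer motif contains, was found in 8.86% of all windows and in the same 3 of 12 windows of the members. In Pik3ca the motif ran from base -48 to base -41 on the strand opposite to the gene, in Mtor from base -237 to base -230 and in Tsc2 from base -8 to base -1, both on the gene's strand, counted back from the transcript start. The Tsc2 window held the shorter form once more, on the opposite strand, from base 11 to base 17 after the start. The 250 bases upstream of these 3 starts are shown because they hold the motif. Those of Tsc1 are shown because its arrays separated by group and its window did not hold it, which was also so for Rictor (not shown). The bases shown are RefSeq sequences of build GRCm38.p6, read 5′ to 3′ on the gene's strand, and capitals mark CCGGAAGT or its reverse complement. They lie at chr3:32396815-32397064 on the plus strand for Pik3ca, chr4:148448332-148448581 on the plus strand for Mtor, chr17:24632628-24632877 on the minus strand for Tsc2 and chr2:28640983-28641232 on the plus strand for Tsc1.
Pik3ca: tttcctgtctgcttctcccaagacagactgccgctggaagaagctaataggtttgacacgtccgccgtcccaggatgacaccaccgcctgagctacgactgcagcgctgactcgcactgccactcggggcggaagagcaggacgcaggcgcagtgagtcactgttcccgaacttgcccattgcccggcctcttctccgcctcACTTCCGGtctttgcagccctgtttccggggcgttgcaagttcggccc
Mtor: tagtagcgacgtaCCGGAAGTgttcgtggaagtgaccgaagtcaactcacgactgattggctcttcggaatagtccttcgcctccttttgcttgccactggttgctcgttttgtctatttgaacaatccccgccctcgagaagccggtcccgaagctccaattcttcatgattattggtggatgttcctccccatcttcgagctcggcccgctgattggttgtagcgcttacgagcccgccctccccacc
Tsc2: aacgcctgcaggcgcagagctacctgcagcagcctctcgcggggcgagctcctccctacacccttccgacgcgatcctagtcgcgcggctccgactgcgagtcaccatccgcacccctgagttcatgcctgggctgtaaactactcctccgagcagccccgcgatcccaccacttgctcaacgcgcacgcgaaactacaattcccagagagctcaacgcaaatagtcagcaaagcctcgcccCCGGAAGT
Tsc1: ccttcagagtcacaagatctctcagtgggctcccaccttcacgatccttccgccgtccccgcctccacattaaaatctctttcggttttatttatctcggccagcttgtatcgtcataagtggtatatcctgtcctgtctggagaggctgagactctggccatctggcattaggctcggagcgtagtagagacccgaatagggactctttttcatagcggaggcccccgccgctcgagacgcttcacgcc

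A match is a description of these letters and says nothing of binding in these cells.

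The comparison asked how expression in this fraction differed between mice labelled GABPα-deficient and controls. Values are the authors' log2 values, differences are log2 means of the deficient arrays minus those of the controls, and errors are standard errors (SE) or 95% intervals of limma's fit over all 35556 probe sets. The arrays had median log2 values of 5.93 and 6.01 in the deficient group and 5.87 and 5.91 in the control group, and over all probe sets the differences had a median of 0.15. After cyclic loess, an alternative scaling between arrays, that median was -0.0045. Gabpa itself read 6.43 and 7.85 on the deficient arrays, against 8.43 and 7.28 on the control arrays, so the groups overlapped (difference -0.71, SE 0.68, limma adjusted p = 0.605). Without deficient replicate 1 the Gabpa difference was 0.0021. Nothing here shows whether this probe set lies within the deleted exons, so the groups are called by their labels. Nothing in the labels shows that the arrays came from separate animals, so p-values speak only of the spread among these samples, which may be technical, and an exact permutation test of 2 arrays against 2 cannot go below p = 0.333 (two-sided).

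Marker genes of the sorted cells and of other cell types were summed for each array on the linear scale and are given as log2. Of the 9 LSK and stem cell markers 7 were measured, and all 7 lay below 0, with sums of 9.71 and 10.11 on the deficient arrays and 12.51 and 12.40 on the control arrays. Kit, which encodes the stem cell factor receptor of the gate, read 7.70 and 8.50 on the deficient arrays and 10.21 on each control array (difference -2.11, SE 0.32, limma adjusted p = 0.288). All 9 measured erythroid markers of 12 lay above 0. Their sums were 12.01 and 12.64 on the deficient arrays and 10.21 and 10.34 on the control arrays. The groups did not overlap for 6 of these 9. Hemgn, Tfrc and Epb42, singled out after their values were seen, had overlapping groups. These markers read 7.42, 7.39 and 5.19 on deficient replicate 1, and 9.62, 10.18 and 7.22 on deficient replicate 2. All 11 macrophage markers lay above 0. Their sums were 11.59 and 10.83 on the deficient arrays and 9.82 and 10.02 on the control arrays. The groups did not overlap for 8 of these 11. Cd68, C1qc and Csf1r, also singled out after their values were seen, had overlapping groups. They read 9.07, 8.90 and 7.52 on deficient replicate 1, and 7.95, 6.28 and 6.02 on deficient replicate 2. Of 10 stromal and endothelial markers 8 lay above 0, with sums of 11.33 and 11.002 on the deficient arrays and 9.86 and 9.64 on the control arrays. The largest part of both deficient sums was Sparc, singled out after its values were seen. Sparc read 10.38 and 9.98 on the deficient arrays and 6.19 and 6.56 on the control arrays. Pecam1 (-0.50) and Emcn (-0.17) were the markers below 0. Across all probe sets 66.4% of differences were above 0, and for 38.9% the groups did not overlap and the deficient arrays were higher. The 6 measured megakaryocyte markers, all below 0, had sums of 10.55 and 9.60 on the deficient arrays and 11.86 and 12.004 on the control arrays. The 6 measured B and plasma cell markers, all above 0, had sums of 10.80 and 11.15 on the deficient arrays and 10.59 and 9.79 on the control arrays. For 5 T and NK cell markers (3 above 0) the sums were 9.81 and 9.28 on the deficient arrays and 10.70 and 10.54 on the control arrays. The control sums were mostly Nkg7, which read 9.45 and 7.44 on the deficient arrays and 10.53 and 10.33 on the control arrays. Cd3e, Cd3g and Gzma were the markers above 0. For 7 granulocyte markers (4 above 0) the sums were 12.90 and 12.30 on the deficient arrays and 13.09 and 13.04 on the control arrays. Array values have no true 0, so none of these markers can be called absent. In bulk RNA, fewer cells of a type and less RNA per cell cannot be told apart, and the part of these markers in the results below was not tested.

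Among the 9 members, 0 passed limma's adjusted threshold of 0.05, as did 0.0% of all probe sets, and the lowest adjusted p was 0.392. At an unadjusted p under 0.05, 3 were lower on the deficient arrays (Tsc1, Mtor and Pik3ca) and 0 were higher, where 5.25% of all probe sets were lower (1865) and 6.64% higher (2360). After cyclic loess the same 3 members passed, and the split over all probe sets was 2349 lower and 1191 higher. The count of 3 members fell to 1 without deficient replicate 1 (Mtor), to 0 without deficient replicate 2, to 0 without control replicate 1 and to 1 without control replicate 2 (Pik3ca). The arrays of the groups did not overlap for 4 members, those 3 and Rictor, all lower on the deficient arrays, where 14.0% of all probe sets did not overlap and were lower and 38.9% did not overlap and were higher, 52.9% in all. The median difference of the 9 was -0.037, against 0.15 for all probe sets, with 5 below 0 and 4 above, where 33.6% of all probe sets lay below 0. That median was -0.27 without deficient replicate 1, -0.16 without deficient replicate 2, -0.18 without control replicate 1 and 0.0078 without the dimmer 50% of probe sets, which left out Pik3ca. The members did not lie to one side, and spread from -1.14 for Pik3ca to 0.35 for Stk11.

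**Figure D1:**
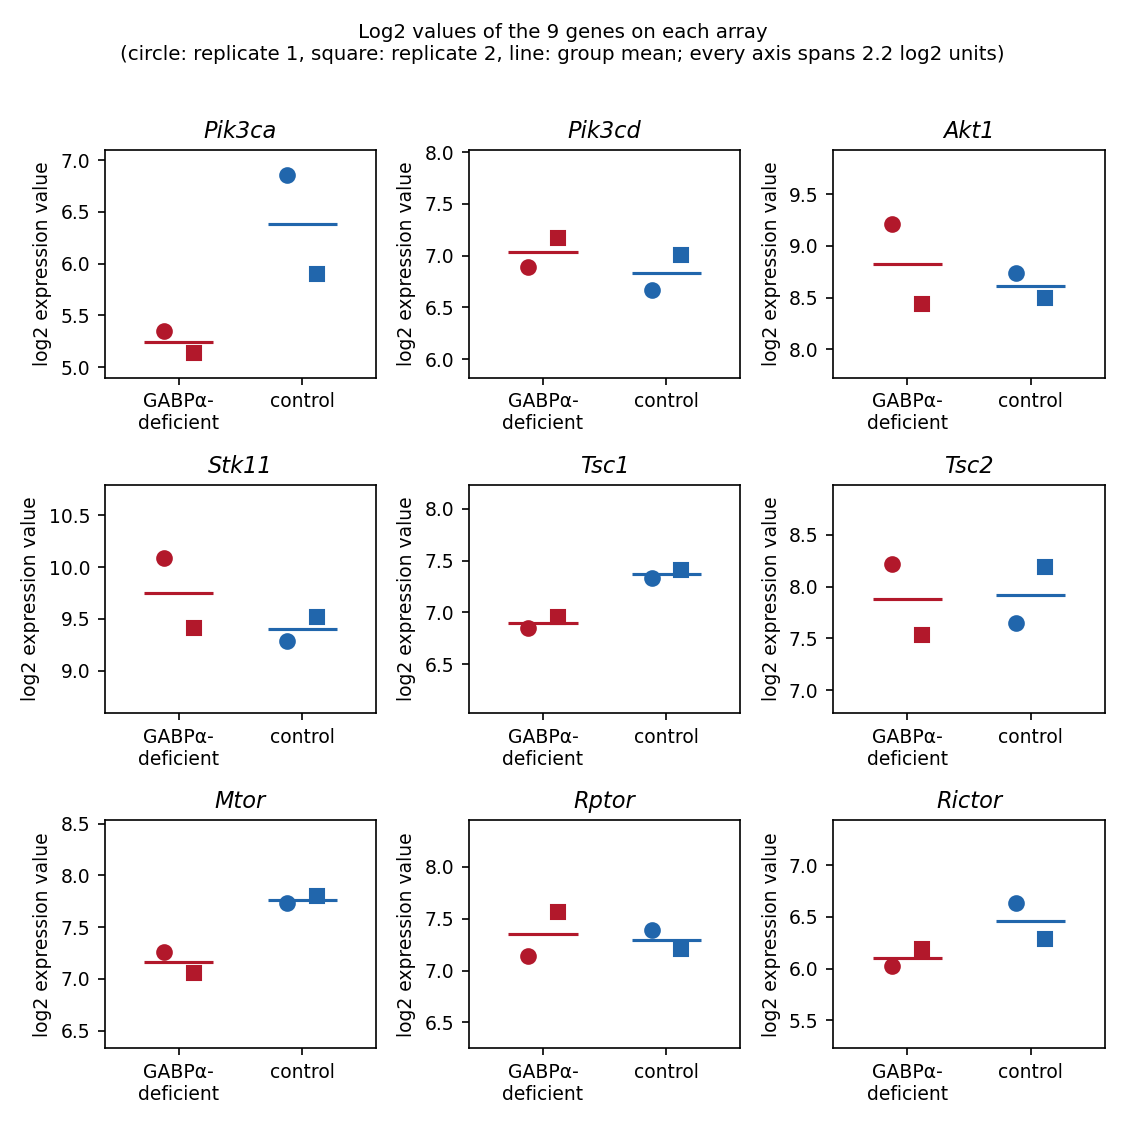
Log2 expression value (vertical axes, each spanning 2.2 log2 units) of each of the 9 genes on the 2 GABPα-deficient arrays (left, red) and the 2 control arrays (right, blue), with replicate 1 as a circle, replicate 2 as a square and the group mean as a line. The groups do not overlap for Pik3ca, Tsc1, Mtor and Rictor, and for Akt1 and Stk11 deficient replicate 1 stands above the other 3 arrays.

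Pik3ca and Pik3cd encode lipid kinase subunits at the head of the pathway. Pik3ca, which encodes the widely expressed catalytic subunit p110α, read 5.35 and 5.14 on the deficient arrays, against 6.86 and 5.90 on the control arrays. Both deficient arrays lay below both controls, but the 2 controls were 0.96 apart, more than any other pair of replicates among the members. The Pik3ca difference was -1.14 (SE 0.38, 95% interval -2.21 to -0.060, limma adjusted p = 0.413), the farthest from 0 of the 9 members. The size rested on control replicate 1, since the Pik3ca difference was -0.66 without it and -1.61 without control replicate 2. Pik3cd, which encodes p110δ, the catalytic subunit best known from white blood cells, read 6.89 and 7.17 on the deficient arrays, against 6.67 and 7.01 on the control arrays. These pairs overlapped, and the Pik3cd difference was 0.19 (SE 0.21, 95% interval -0.40 to 0.79, limma adjusted p = 0.641). Without control replicate 1 the Pik3cd difference was 0.023.

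Akt1 encodes the most widely expressed of the AKT kinases. It read 9.21 and 8.44 on the deficient arrays, against 8.74 and 8.49 on the control arrays. The 2 deficient arrays enclosed both controls, so the groups overlapped. The Akt1 difference was 0.21 (SE 0.32, 95% interval -0.70 to 1.13, limma adjusted p = 0.740), and without deficient replicate 1 it was -0.18. Stk11, which encodes LKB1, the kinase that activates AMPK, read 10.09 and 9.41 on the deficient arrays, against 9.29 and 9.51 on the control arrays. Deficient replicate 1 was the highest of the 4 arrays and deficient replicate 2 lay between the controls. The Stk11 difference was 0.35 (SE 0.29, 95% interval -0.48 to 1.18, limma adjusted p = 0.568), the highest of the members, and it was 0.0077 without deficient replicate 1.

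The 2 genes of the TSC complex, the brake on mTORC1, differed in how their arrays fell. Tsc1, which encodes hamartin, the subunit that stabilizes the complex, read 6.85 and 6.95 on the deficient arrays, against 7.33 and 7.41 on the control arrays. Replicates were 0.11 apart in the deficient group and 0.076 apart in the control group, and the groups did not overlap. The Tsc1 difference was -0.47 (SE 0.14, 95% interval -0.88 to -0.066, limma adjusted p = 0.408), and it ran from -0.53 to -0.42 with any 1 array left out. Tsc2, which encodes tuberin, the subunit with the GTPase-activating domain for RHEB, read 8.22 and 7.54 on the deficient arrays, against 7.64 and 8.19 on the control arrays. The 4 arrays overlapped fully, with replicates 0.69 and 0.54 apart, and the Tsc2 difference was -0.037 (SE 0.34, 95% interval -1.01 to 0.94, limma adjusted p = 0.962). That interval holds the Tsc1 difference, so a difference of that size in Tsc2 could not be told from none. The sign of the Tsc2 difference turned with the array left out, from -0.38 without deficient replicate 1 to 0.31 without deficient replicate 2.

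Mtor encodes the kinase shared by both mTOR complexes. It read 7.26 and 7.06 on the deficient arrays, against 7.73 and 7.80 on the control arrays. Both deficient arrays lay below both controls by more than the replicates differed, and the Mtor difference was -0.60 (SE 0.15, 95% interval -1.04 to -0.16, limma adjusted p = 0.392), a fold of 0.658. With any 1 array left out the Mtor difference ran from -0.70 to -0.50. Of the partner subunit genes that define the complexes, Rptor had overlapping groups, while Rictor lay lower with groups apart, as Mtor did. Rptor, which encodes RAPTOR, the substrate-binding subunit of mTORC1, read 7.14 and 7.56 on the deficient arrays, against 7.39 and 7.20 on the control arrays. The deficient pair enclosed the controls, and the Rptor difference was 0.052 (SE 0.22, 95% interval -0.56 to 0.67, limma adjusted p = 0.908), with a sign that turned to -0.010 after cyclic loess and to -0.028 after subtraction of array medians. Without deficient replicate 2 the Rptor difference was -0.16, and without control replicate 2 it was -0.041. Rictor, which encodes the defining subunit of mTORC2, read 6.03 and 6.19 on the deficient arrays, against 6.64 and 6.28 on the control arrays. The groups did not overlap, but deficient replicate 2 and control replicate 2 were close, and the Rictor difference was -0.35 (SE 0.19, 95% interval -0.90 to 0.20, limma adjusted p = 0.465). Without control replicate 1 the Rictor difference was -0.18. The Rictor interval holds both 0 and the Mtor difference, so a difference of that size in Rictor could not be told from none.

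**Figure D2:**
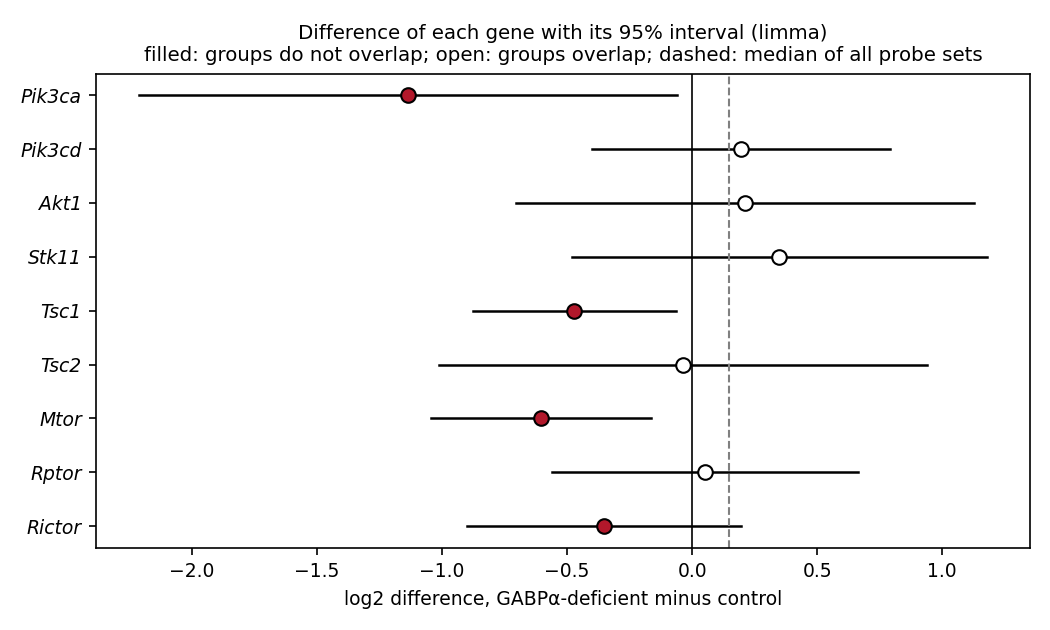
Log2 difference (horizontal axis, GABPα-deficient minus control) of each of the 9 genes with its 95% interval from limma, filled where the groups do not overlap. The intervals of Pik3ca, Tsc1 and Mtor end below 0, those of the other 6 genes include it, and the dashed line marks the median of all probe sets at 0.15.

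Replicate spread differed from gene to gene. The gap between the 2 deficient arrays was wider than the median gap of all probe sets (0.23) for 5 of the 9 members, and the gap between the 2 controls was wider than its median (0.21) for 6 of 9. Stk11, Akt1 and Tsc2 had the widest gaps in the deficient group, 0.68, 0.77 and 0.69, and in all 3 deficient replicate 1 was the higher array. Deficient replicate 1 was higher than replicate 2 for 5 of the 9 members. Whether a shift of an array had a part in these gaps was not tested.

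**Figure D3:**
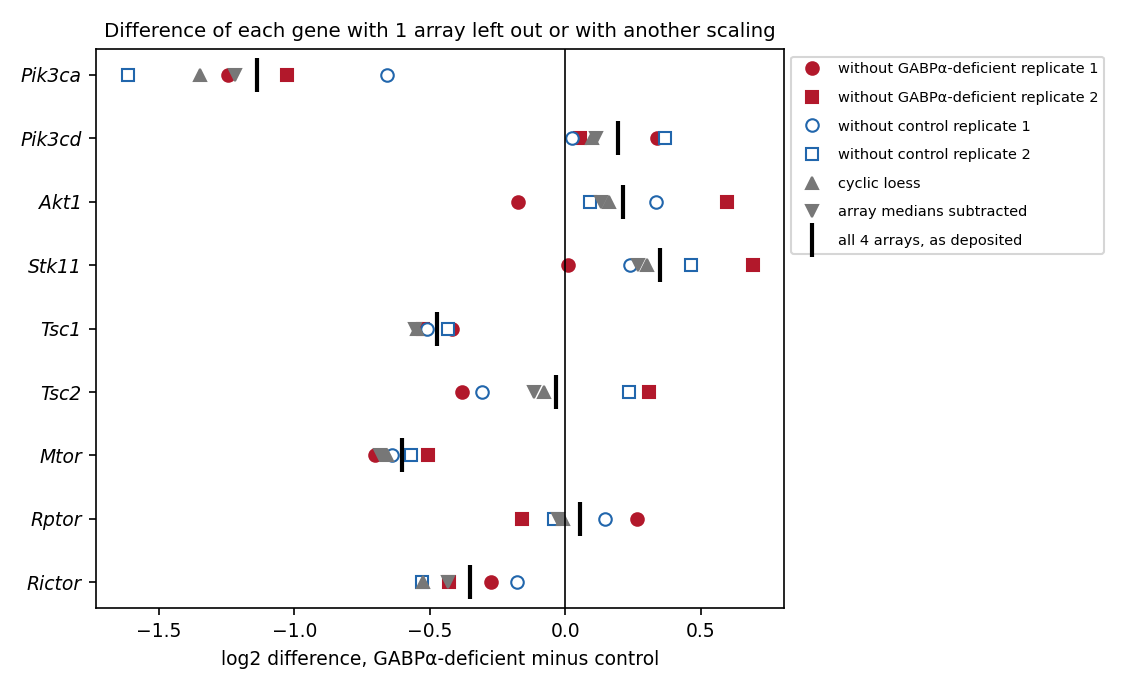
Log2 difference (horizontal axis, GABPα-deficient minus control) of each of the 9 genes with all 4 arrays as deposited (black bar), with 1 array left out (red for deficient, blue for control arrays) and with 2 other scalings (grey). All values of Tsc1, Mtor, Pik3ca and Rictor stay below 0, while those of Tsc2, Rptor and Akt1 lie on both sides of it.

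The other genes of the pathway numbered 109 in 10 lists by role, and 103 of them were measured by a single-gene probe set. The other 6 were not analysed here. In limma's fit 0 of the 103 passed the adjusted threshold, where the smallest adjusted p was 0.173. Without adjustment, 16 of 103 lay lower and 6 higher on the deficient arrays at p under 0.05, where 5.25% of all probe sets lay lower and 6.64% higher. Those shares depended on brightness. Among the brighter 50% of probe sets 1348 lay lower and 964 higher, and of the pathway genes 16 lay lower and 5 higher. The median difference of the 103 was -0.060, against 0.15 for all probe sets. For the 103 it was -0.16 without deficient replicate 1, -0.019 without deficient replicate 2 and -0.15 without control replicate 2. The arrays did not overlap for 29 lower and 17 higher genes of the 103, where the shares over all probe sets were 14.0% lower and 38.9% higher. With 1 array left out, the sign of the difference turned for 40 of the 103. Whether the count of any single list given below differed from the shares over all probe sets was not tested.

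**Figure D4:**
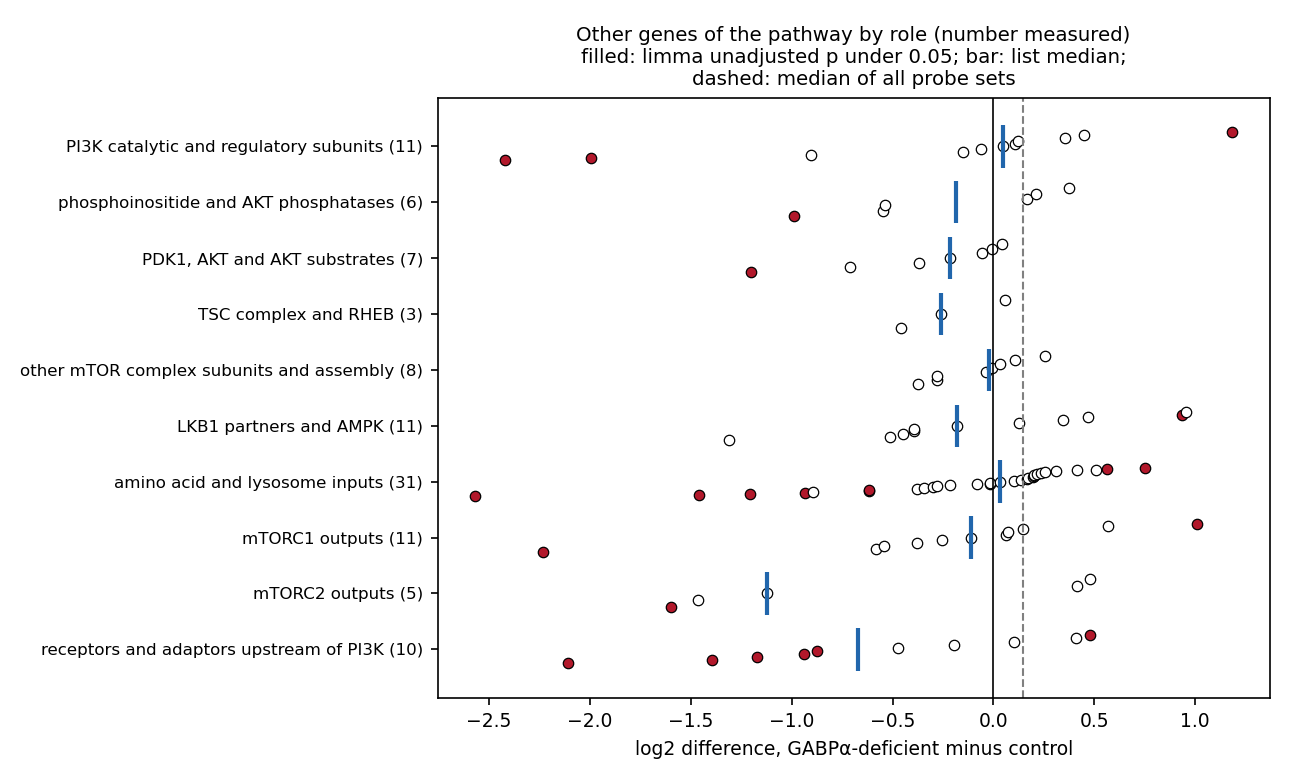
Log2 difference (horizontal axis, GABPα-deficient minus control) of the 103 other pathway genes measured, grouped by role, filled at an unadjusted limma p under 0.05, with a blue bar at each list's median. The list medians lie between -1.12 (mTORC2 outputs, 5 genes, -0.23 without deficient replicate 1 and -0.28 without control replicate 1) and 0.047, and the dashed line marks the median of all probe sets at 0.15.

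Among receptors and adaptors that feed PI3K, 5 of 10 measured genes were lower and 1 was higher at an unadjusted p under 0.05, and the list's median was -0.67, or -0.41 without control replicate 1. Besides Kit, Pik3ap1, which encodes the adaptor BCAP that links B cell and Toll-like receptors to PI3K, read 7.37 and 7.38 on the deficient arrays, against 8.38 and 8.25 on the control arrays (difference -0.94, SE 0.14, limma adjusted p = 0.288). Kit was also counted among the LSK markers given above.

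PI3K subunits other than the members spread in both directions, with 2 lower and 1 higher of 11 at an unadjusted p under 0.05. Pik3cg, which encodes the p110γ subunit that acts below G protein-coupled receptors in white blood cells, read 5.59 and 5.99 on the deficient arrays, against 8.18 and 7.39 on the control arrays (difference -1.99, SE 0.35, limma adjusted p = 0.313). Pik3r1, which encodes the p85α regulatory subunit that holds p110 proteins stable and recruits them to receptors, read 4.94 and 6.31 on the deficient arrays, against 8.07 and 8.02 on the control arrays (difference -2.42, SE 0.51, limma adjusted p = 0.357). The groups were apart for both genes, and the Pik3r1 difference ran from -3.10 to -1.74 with 1 array left out. Pik3r2, which encodes the related p85β and was singled out after its values were seen, read 8.39 and 8.18 on the deficient arrays, against 6.83 and 7.38 on the control arrays (difference 1.18, SE 0.25, limma adjusted p = 0.357). Pik3r1 and Pik3r2 thus lay on opposite sides, each with groups that did not overlap. Pik3cb, which encodes p110β, differed by -0.15 (SE 0.32) with overlapping groups, and by 0.24 without deficient replicate 2. Of the 4 class I catalytic subunit genes, Pik3ca and Pik3cg lay lower with groups apart, and Pik3cb and Pik3cd overlapped. Groups apart were common, since 52.9% of all probe sets did not overlap, 14.0% of them all being lower and 38.9% higher.

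Of 6 measured phosphatase genes, which encode brakes on PI3K and AKT signalling, 1 was lower and 0 were higher at an unadjusted p under 0.05. Inpp5d, which encodes SHIP1, the blood cell phosphatase that removes the 5-phosphate from PIP3, read 8.57 and 8.87 on the deficient arrays, against 9.59 and 9.83 on the control arrays (difference -0.99, SE 0.19, limma adjusted p = 0.333). Phlpp1, which encodes a phosphatase of AKT, differed by -0.54 (SE 0.20). Among PDK1, AKT and AKT substrates 1 of 7 was lower and 0 higher. Gsk3b, which encodes the kinase GSK3β that AKT inhibits, read 6.03 and 6.57 on the deficient arrays, against 7.48 and 7.51 on the control arrays (difference -1.20, SE 0.24, limma adjusted p = 0.338). Akt2, the AKT gene best known from insulin signalling, differed by -0.71 (SE 0.37) on the probe set that stood for it and by -0.67 (SE 0.39) on its second one, where the groups overlapped. Without deficient replicate 2 the Akt2 difference was -0.27.

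Nearest the members in the pathway were the other genes of the TSC and mTOR complexes and RHEB. In the TSC complex and RHEB list 0 of 3 had an unadjusted p under 0.05, where 11.9% of all probe sets did. Rheb, the GTPase that TSC2 inactivates, differed by -0.26 (SE 0.27) and by 0.025 without control replicate 1. Tbc1d7, the third subunit of the TSC complex, read 7.54 and 4.72 on the deficient arrays, against 6.39 and 6.79 on the control arrays. The 2 deficient arrays thus lay on either side of the controls, and the Tbc1d7 difference of -0.46 (SE 1.04) became 0.95 without deficient replicate 2. Of 8 other mTOR complex and assembly genes 0 had an unadjusted p under 0.05. In lists this short, a count of 0 cannot be told from the share over all probe sets. Mlst8, a subunit of both complexes, differed by 0.26 (SE 0.37) and by -0.20 without deficient replicate 1. Mapkap1, which encodes the mTORC2 subunit SIN1, differed by -0.28 (SE 0.20), and Deptor, an inhibitor that binds mTOR, by -0.28 (SE 0.20). Without deficient replicate 2 the Deptor difference was -0.068, and without control replicate 1 the Mapkap1 difference was -0.12.

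Of 11 LKB1 partner and AMPK genes 0 were lower and 1 was higher at an unadjusted p under 0.05, where 5.25% of all probe sets were lower and 6.64% higher. Prkab1, which encodes the AMPK β1 subunit, read 9.91 and 9.81 on the deficient arrays, against 8.80 and 9.06 on the control arrays (difference 0.93, SE 0.17, limma adjusted p = 0.317). Prkag1, for the γ1 subunit, differed by 0.95 (SE 0.44), and by 0.40 without control replicate 2. Among 31 genes of amino acid and lysosome inputs to mTORC1, 5 were lower and 2 higher. Bmt2, which encodes SAMTOR, a sensor of S-adenosylmethionine that restrains mTORC1, read 5.54 and 5.43 on the deficient arrays, against 8.23 and 7.87 on the control arrays (difference -2.57, SE 0.19, limma adjusted p = 0.173). It had the lowest adjusted p of the 103 genes, and its groups were apart by far more than the replicates. Lamtor5, a subunit of the Ragulator scaffold on lysosomes, read 10.11 and 10.06 on the deficient arrays, against 9.21 and 9.45 on the control arrays (difference 0.75, SE 0.16, limma adjusted p = 0.358). Slc38a9, the lysosomal arginine sensor, was singled out after its values were seen, because its 2 probe sets disagreed. Its difference was 0.56 (SE 0.16) on the brighter one, by which it was counted as higher, and -1.24 (SE 0.14) on the other. Castor2, singled out for the same reason, was counted as lower by its brighter probe set (-0.93, SE 0.20) and differed by 0.16 (SE 0.15) on the other.

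Downstream of mTORC1, 1 of 11 measured genes was lower and 1 higher. Pdcd4, which encodes a translation inhibitor that S6 kinase marks for breakdown, read 7.89 and 9.03 on the deficient arrays, against 10.67 and 10.71 on the control arrays (difference -2.23, SE 0.43, limma adjusted p = 0.328). Eif4ebp1, which encodes the 4E-BP1 repressor of cap-dependent translation, read 8.76 and 8.004 on the deficient arrays, against 7.33 and 7.41 on the control arrays (difference 1.01, SE 0.31, limma adjusted p = 0.408). Without deficient replicate 1 the Eif4ebp1 difference was 0.63. Downstream of mTORC2, 1 of 5 was lower and 0 were higher. The median of these 5 genes was -1.12, but -0.23 without deficient replicate 1, -0.63 without deficient replicate 2 and -0.28 without control replicate 1. Prkca, which encodes protein kinase Cα, read 5.56 and 5.22 on the deficient arrays, against 6.74 and 7.23 on the control arrays (difference -1.60, SE 0.25, limma adjusted p = 0.291). Ndrg1, a target of the SGK1 kinase, differed by -1.47 (SE 0.65), and by -0.63 without deficient replicate 2. These are transcript levels, and the activity of the pathway, which is carried by phosphorylation, was not measured.

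The genes whose 4 values, centred on their mean, lay closest to those of Tsc1, Mtor and Pik3ca were found among the 19937 other genes by root mean square distance on the log2 scale. Nearest to Tsc1 were Mib1 at 0.017 and Thada at 0.019, nearest to Mtor were Cat at 0.018 and Faf1 at 0.029, and nearest to Pik3ca were Snrnp48 at 0.033 and Appl1 at 0.041. Over only 4 arrays such closeness is common. Within a distance of 0.2 lay 1156 genes for Tsc1, 744 for Mtor and 147 for Pik3ca.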

How the data were processed

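Total RNA of sorted cells was amplified (NuGEN WT-Ovation Pico, from 800 pg to 50 ng) and hybridized to Affymetrix Mouse Gene 1.0 ST arrays, per the labels' protocols. The authors deposited log2 expression values for each probe set, made with RMA and Partek per the submitters' processing notes, which give no versions. No coordinates come from the authors' build, not given in the sources used here. The values ran from 1.98 to 13.7, so no logarithm or further normalization was applied, and 0 value columns were left over. Arrays carry no read depth, and 4 of them give limited precision.

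Names came from the platform annotation, with symbols updated by Entrez number in the RefSeq table of GRCm38.p6. Of 35556 probe sets 21789 had 1 gene symbol, 1621 several and 12146 none, and only those with 1 were named. A gene with several was represented by its brightest, by mean value. Deficient arrays were compared with controls in R 4.3.3 with limma 3.58.1 (lmFit and eBayes, genotype as the only term, Benjamini-Hochberg over all probe sets, called at an adjusted p under 0.05). The fit was also run on simulated data. These had independent probe sets, no shifts of whole arrays and planted differences larger than those of the members. That run therefore does not show how the fit performs on differences of the members' size. Figures used matplotlib 3.10.9 in Python 3.11.15.

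The members, the lists and the naming rule were chosen with earlier results of these data known. The rule named the 9 members, Akt2, Pik3cb, Pik3cg, Pik3r1, Rheb, Tbc1d7, Mlst8, Kit and Gabpa whatever their values, the 2 genes with the smallest unadjusted p in each of 10 lists, and the 2 genes nearest in pattern to each of 3 members. Alternatives were 2 scalings, a filter on dim probe sets, another variance model, a replicate block, leaving out each array, and the mean of a gene's probe sets.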

Additional observations from a re-analysis of the deposited data

How the results depend on the processing

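With 2 arrays a group, precision was limited by their number. Under every alternative that kept all arrays, 0 members passed limma's adjusted threshold. Those fitted to probe sets, 1 of them to the brighter 50% only, had 0 probe sets past it. In the main fit 4225 probe sets had an unadjusted limma p under 0.05. The 3 members lower at an unadjusted p under 0.05 became 1 without the dimmer 50% of probe sets (Mtor; Pik3ca was among those left out), 1 with eBayes trend and robust settings (Pik3ca) and 0 to 1 with 1 array left out; the cause was not tested. With a replicate block the count was 2 (Mtor and Pik3ca). The signs of Tsc1, Mtor, Pik3ca, Rictor, Stk11 and Pik3cd held under every alternative run on them. The Tsc2 difference of -0.037 ran from -0.38 without deficient replicate 1 to 0.31 without deficient replicate 2, and was 0.23 without control replicate 2. The Rptor difference of 0.052 turned to -0.010 after cyclic loess, -0.028 after subtraction of array medians, -0.16 without deficient replicate 2 and -0.041 without control replicate 2, and was 0.27 without deficient replicate 1. The Akt1 difference of 0.21 turned to -0.18 without deficient replicate 1 and was 0.60 without deficient replicate 2. Over all probe sets, the 2360 higher at an unadjusted p under 0.05 became 1191 after cyclic loess, 1537 after subtraction of array medians, 964 without the dimmer 50%, 1341 with a replicate block and 714 to 2198 with 1 array left out. The 964 were counted among the brighter 50% of probe sets only, where 1348 were lower, against 1865 lower of all 35556. These filtered counts therefore cannot be set directly against the 2360. Over all probe sets the median difference, 0.15 as deposited, was -0.0045 after cyclic loess and 0.065 after subtraction of medians. It was 0.079 without the dimmer 50%. Of the other pathway genes, 6 were higher at an unadjusted p under 0.05, against 3 with a replicate block and 3 to 8 with 1 array left out. Samples of the same replicate number share only a number in the labels, and their deviations from the group means correlated at -0.088 across probe sets.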
